A study of Homo sapiens with 9 samples.

Results

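BEAS-2B is a line of human bronchial epithelial cells that were immortalized with an adenovirus-SV40 hybrid virus. The transcriptome of its untreated state was taken from 3 RNA-seq libraries of a series of 9, chosen because they carry the label untreated. These cells received medium alone, Dulbecco's Modified Eagle Medium with 10% fetal bovine serum, while the other 6 libraries of the series came from cells given e-cigarette or carrier aerosol condensate and were not read here. The 3 libraries are named control replicates 2, 3 and 4 after their labels, which give the same number as the batch, and the methods of the study call them biological replicates. Each batch holds 1 untreated library, so a difference between batches and a difference between cultures cannot be told apart. The RNA was selected by its poly(A) tail before sequencing, so transcripts without a tail are under-represented. The cells are a single immortalized line, so the values describe that line and not bronchial epithelium from donors.

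The bronchial surface is lined by basal, club, goblet, ciliated and rarer cell types. Basal cells are its stem cells and are known by the transcription factor TP63 and the keratin pair KRT5 and KRT14. Simple epithelia carry the keratins KRT8 and KRT18, and neighbouring cells are held together by E-cadherin, the product of CDH1. Cells that pass through epithelial-mesenchymal transition lose E-cadherin, gain N-cadherin from CDH2 and vimentin from VIM, and express the transcription factors SNAI1, SNAI2, TWIST1, TWIST2, ZEB1 and ZEB2. The airway epithelium also takes up and converts inhaled compounds, in phase I by cytochrome P450 and other oxidizing or reducing enzymes and in phase II by conjugation.

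Levels are given in 2 units. CPM (reads on a gene per 1000000 reads on all genes, with the library size scaled by TMM) compares a gene between libraries. TPM (transcripts per 1000000) divides the counts by the length of all exons of the gene, joined, and is used to compare genes with each other. A gene was called present at 1 TPM or more in all 3 libraries, which held for 11615 of 20045 protein-coding genes (57.9%). It was called at or under the floor where it had 3 counts or fewer in every library, which held for 6006 protein-coding genes (29.96%). A floor of 3 counts was 0.187, 0.183 and 0.164 CPM in control replicates 2, 3 and 4. The other genes were low, with under 1 TPM throughout but more than 3 counts in at least 1 library, or mixed, with 1 TPM or more in only 1 or 2 libraries. Intervals and floors cover counting error only. With 3 libraries of 1 condition there is no contrast to test, so no p-values are given and differences between libraries are described by their size.

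The libraries held 16168260, 16648310 and 17882770 counts on genes, and 23347 to 24997 genes had at least 1 count. Control replicates 2 and 3 were close to each other and control replicate 4 stood apart. Over 13884 genes with at least 10 counts in every library, Pearson's r of log2(CPM + 1) was 0.996 between replicates 2 and 3, and 0.984 between replicate 4 and either of them (Spearman's rho was 0.996, 0.983 and 0.984). These are correlations across genes, which are not independent replicates. A difference past 2-fold was seen for 98 genes (0.706%) between replicates 2 and 3, for 681 genes (4.9%) between replicates 2 and 4, and for 672 genes (4.84%) between replicates 3 and 4. The chi-square per gene was 3.97, 41.1 and 39.9 in the same order, so no library was a copy of another. The median biological coefficient of variation per gene was 0.149 with all 3 libraries and 0.0576 without replicate 4. Genes were therefore reported by library, and counts of present genes also without replicate 4.

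**Figure D1:**
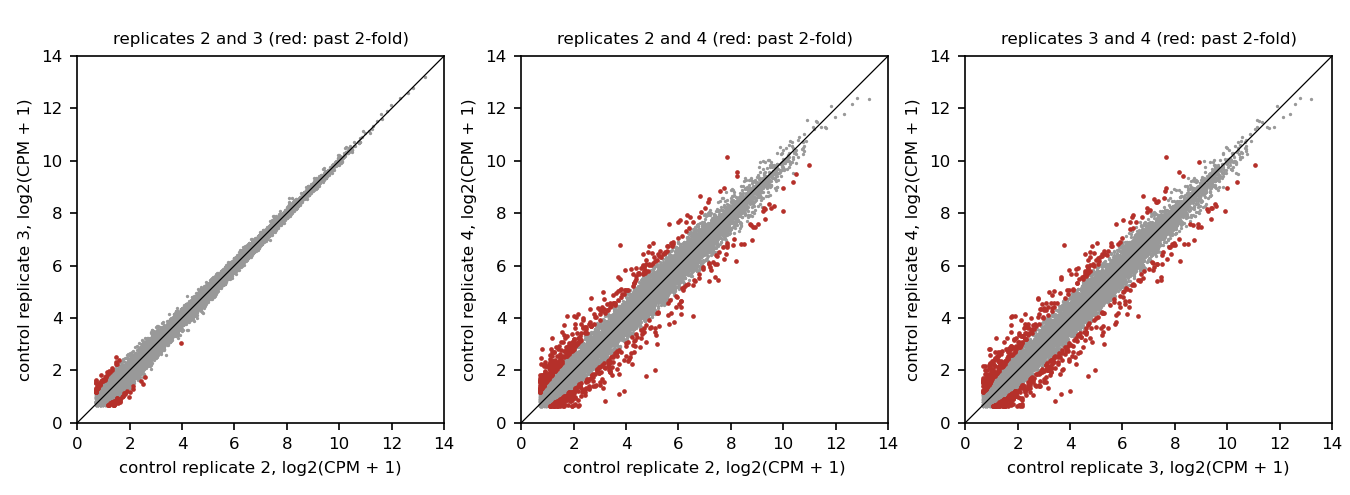
Each panel plots log2(CPM + 1) of 2 untreated libraries against each other for genes with at least 10 counts in all 3 libraries that matched the annotation, with the line of equal values and genes past 2-fold in red. Replicates 2 and 3 lie close to the line, and replicate 4 scatters more widely against both.

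By counted reads, the most abundant transcripts encoded proteins of translation, the cytoskeleton and energy metabolism. Reads that mapped to several places were not counted, so genes with near-identical copies may rank too low in CPM and in TPM. By CPM, EEF1A1, which carries aminoacyl-tRNA to the ribosome, came first at 9909, 9414 and 5291 CPM in replicates 2, 3 and 4. The cytoplasmic actins followed, with ACTB at 7166, 7098 and 5467 CPM and ACTG1 at 6322, 6202 and 4587 CPM. The values of EEF1A1, ACTB and ACTG1 were all lowest in replicate 4, where ACTB and not EEF1A1 ranked highest. FN1, the extracellular matrix protein fibronectin, came next with 5145, 5452 and 3489 CPM. MYH9, non-muscle myosin heavy chain, had 4073, 4518 and 3271 CPM, and FLNA, the actin cross-linker filamin A, 3081, 3519 and 2517 CPM. Fibronectin, myosin and filamin were also lowest in replicate 4. The other genes among the 15 highest by CPM were MT-CO1, ANXA2, EEF2, ENO1, PKM, MT-ND4, GAPDH, HSP90AA1 and MT-CO3. The glycolytic enzymes ENO1, PKM and GAPDH were highest in replicate 4, ENO1 at 2497, 2575 and 2879 CPM. The 10 genes with most counts took 4.73%, 4.801% and 3.87% of each library, and 1102 to 1178 genes held 50% of the counts.

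Per length, short and mitochondrially encoded transcripts rose in rank, and 7 of the 15 genes with the highest CPM were also among the 15 with the highest TPM. MT-CO1, a catalytic subunit of cytochrome c oxidase, had 10401, 10876 and 12478 TPM. MT-CO3 and MT-CO2, subunits of the same complex, had 10007, 10309.8 and 11651 TPM and 9809, 10698 and 11418 TPM. MT-CO1 was above MT-CO3 and MT-CO2 in every library, and the order of MT-CO3 and MT-CO2 differed between libraries. TMSB10, a small protein that binds actin monomers, followed with 9427, 10327 and 8780.1 TPM, and its range overlapped with those of MT-CO2 and MT-CO3. FTL, the ferritin light chain that stores iron, had 6501, 6213 and 7799.9 TPM. Genes of the mitochondrial genome together took 1.49%, 1.68% and 1.92% of the counts but 7.201%, 8.097% and 9.05% of the TPM, in each unit highest in replicate 4. The choice of length mattered for single genes. The exons of EEF1A1 together span 10063 bases and its canonical transcript 3512, and 11 of the 15 highest genes were shared when the canonical transcript was used.

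**Figure D2:**
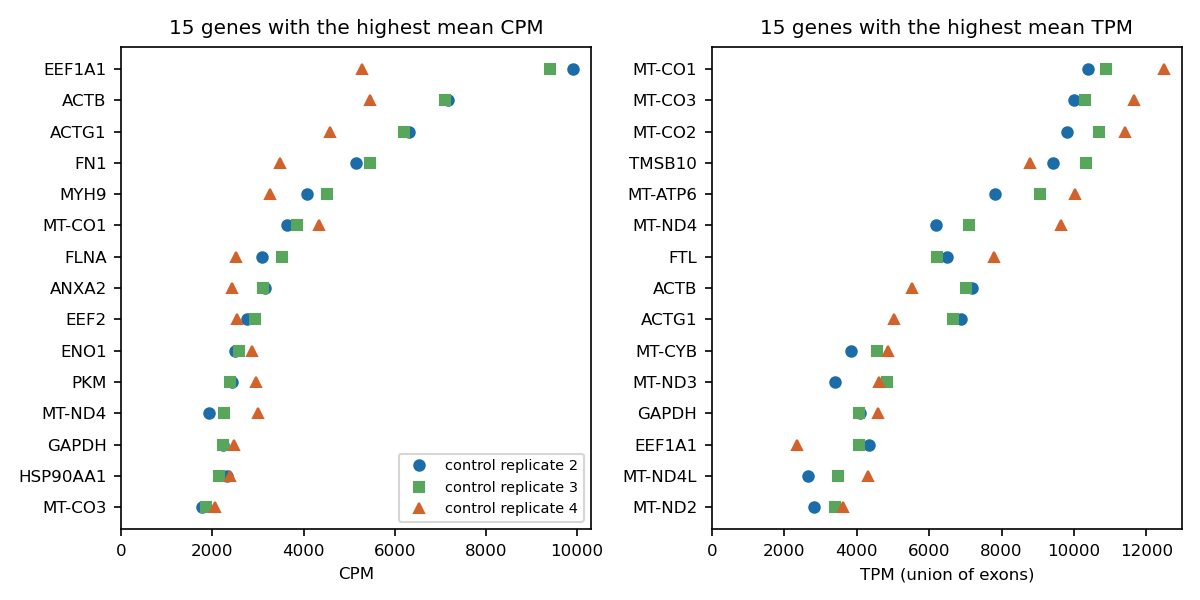
The 15 genes with the highest mean CPM (left) and the highest mean TPM (right), with a point for each untreated library on a linear axis. EEF1A1, ACTB, ACTG1 and FN1 are lowest in replicate 4, and the mitochondrially encoded genes among the 15 highest by TPM, other than MT-ND3, are highest there.

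Simple-epithelial keratins were among the strongly expressed genes, while E-cadherin RNA was low and the factors that maintain epithelial identity were split. Of 33 epithelial genes, 23 (69.7%) were present, against 57.9% of protein-coding genes, and 23 were present without replicate 4. KRT18 (chr12:52948871-52952906, GRCh38), a type I keratin, had 871, 875 and 553 TPM. KRT8 (chr12:52897187-52949954), its type II partner, had 733, 721 and 535 TPM. KRT7, another keratin of simple epithelia, had 1121, 1109 and 550.5 TPM. All 3 keratins were lowest in replicate 4, and the ranges of KRT18 and KRT8 overlapped. The order of the keratin pair also depended on the length used: the ratio of KRT18 to KRT8 was 1.19, 1.21 and 1.03 on the union of exons and 0.6696, 0.684 and 0.582 on the canonical transcripts. Counted reads on the 51 named KRT8 pseudogenes were 0.7604% to 0.996% of the KRT8 count. On the 68 named KRT18 pseudogenes they were 0.316% to 0.423% of the KRT18 count. Reads that mapped to both a keratin and a copy were not counted, so these shares cannot show how many reads the copies cost.

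CDH1 (chr16:68737292-68835537), which encodes E-cadherin, had 16, 14 and 3 counts, or 0.726, 0.611 and 0.1198 TPM. The exact Poisson interval of its level at 95% was 0.415 to 1.18 TPM in replicate 2, 0.334 to 1.02 TPM in replicate 3 and 0.0247 to 0.3503 TPM in replicate 4. Its transcript was thus detected at a low level in replicates 2 and 3 and was at the floor in replicate 4. The desmosomal and tight-junction genes gave another picture. DSP, the desmosomal plaque protein desmoplakin, had 70.8, 68.4 and 67. TPM, and DSG2, a desmosomal cadherin, 85.3, 80.4 and 70.7 TPM. TJP1, a scaffold of tight junctions, had 99.2, 100.4 and 65.2 TPM, and CLDN1, a tight-junction strand protein, 216, 185 and 98.7 TPM. These junction genes were present in all 3 libraries. EPCAM, a surface adhesion protein of epithelia, was present at only 2.72, 1.2 and 2.497 TPM. ESRP1, which drives epithelial splicing, was low at 0.339, 0.326 and 0.199 TPM, while its paralog ESRP2 was present at 8.03, 7.71 and 10.99 TPM. Of the transcription factors and trafficking genes that maintain epithelial identity, OVOL1 and OVOL2 were at or under the floor, while GRHL1 was present at 2.53, 2.17 and 1.28 TPM. GRHL2 and RAB25 had no count in any library, which allows up to 3 counts per library. Set against the label epithelial cell, KRT7, KRT8, KRT18, DSP, DSG2, TJP1 and CLDN1 were thus present, the tight-junction gene CLDN4 was mixed at 0.587, 1.13 and 0.827 TPM, and CDH1, ESRP1, OVOL1, OVOL2, GRHL2 and RAB25 were low or at or under the floor. In bulk RNA, a low level in every cell and a higher level in few cells cannot be told apart.

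**Figure D3:**
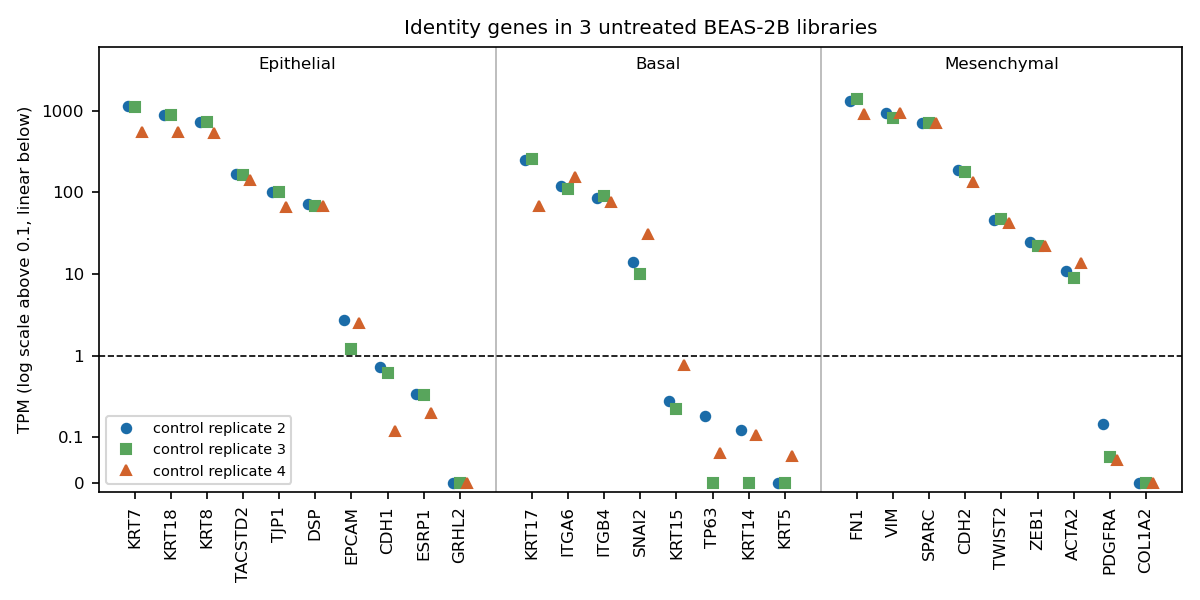
TPM on the union of exons of epithelial, basal and mesenchymal identity genes, with a point for each untreated library, a log axis above 0.1 TPM that is linear below, and a dashed line at 1 TPM. KRT7, KRT18, KRT8, KRT17, FN1, VIM and CDH2 lie far above the line, and CDH1, TP63, KRT14, KRT5, GRHL2 and COL1A2 lie below it in every library.

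The defining basal genes were not detected above the floor or were low, although 11 of 18 basal genes (61.1%, against 57.9% of protein-coding genes) were present, with and without replicate 4. KRT5 (chr12:52514575-52520530) had 0, 0 and 1 counts, and its interval reached up to 0.246, 0.237 and 0.327 TPM. KRT14 had 1, 0 and 1 counts, KRT6A had 0 throughout, although it has near-identical copies and reads that mapped to several of them were not counted, and TP63 had 5, 0 and 2 counts, or 0.184, 0 and 0.0649 TPM. KRT15 was low at 0.277, 0.222 and 0.773 TPM. None of these basal keratins or TP63 thus reached 1 TPM in any library on the union of exons, while on the canonical transcript KRT15 was at 1.53 TPM in replicate 4. The members that were present included matrix receptors and basement membrane genes. ITGA6 and ITGB4, the integrin pair of hemidesmosomes, had 119, 108 and 155 TPM and 83.9, 90.7 and 75.1 TPM. LAMB3 and LAMA3, chains of a basement membrane laminin, had 103, 102 and 147 TPM and 24.7, 27.3 and 31.7 TPM. KRT17, a keratin of basal and injured epithelium, had 246, 255 and 68.7 TPM. Replicate 4 held the lowest value of KRT17, and the CPM ratio of the highest to the lowest library was 3.79.

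Of the mesenchymal list, 23 of 34 genes (67.6%, against 57.9% of protein-coding genes; 24 without replicate 4) were present. VIM (chr10:17228241-17237593), which encodes the intermediate filament vimentin, had 927, 816 and 928 TPM, or 890.2 ± 64.3 (SD, n = 3), with 24.6% of its exonic bases inside other genes as well. FN1 had 1319.7, 1378 and 901 TPM, and TGFBI, a matrix protein induced by TGF-beta, 983, 965 and 697 TPM. SPARC, a collagen-binding matrix protein, varied little at 705, 701 and 697 TPM, and TAGLN, an actin-binding protein of smooth muscle and fibroblasts, had 314, 338 and 119 TPM. The values of FN1, TGFBI and TAGLN were lowest in replicate 4, and 47.8% of the exon length of TAGLN is shared with other genes. CDH2 (chr18:27932879-28177946), which encodes N-cadherin, had 189.5, 176 and 133 TPM with 5898, 5703 and 4703 counts. The ratio of N-cadherin to E-cadherin RNA per length was 261 in replicate 2 (exact 95% interval 161 to 457), 288 in replicate 3 (172 to 528) and 1109.8 in replicate 4 (379.5 to 5383). The ratio was far above 1 in every library, and its value in replicate 4 rests on 3 CDH1 counts. The order of vimentin and the keratins depended on the library and the length. On the union of exons the ratio of VIM to KRT18 was 1.06, 0.932 and 1.68, and that of VIM to KRT8 was 1.26, 1.13 and 1.73. On the canonical transcripts VIM to KRT18 was 1.18, 1.03 and 1.86, and VIM to KRT8 was 0.788, 0.705 and 1.08.

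The epithelial-mesenchymal transition factors SNAI1, SNAI2, TWIST1, TWIST2, ZEB1 and ZEB2 were all present. TWIST2 had 45.3, 47.5 and 41.7 TPM, TWIST1 33.4, 33.2 and 27.1 TPM and ZEB1 24.7, 21.7 and 22. TPM. ZEB2 had 10.9, 10.9 and 9.02 TPM and SNAI1 5.02, 6.37 and 3.84 TPM. TWIST2 was above TWIST1 and above ZEB1 in every library. SNAI2 had 13.9, 9.93 and 31.2 TPM, with replicate 4 the highest. Fibroblast and smooth muscle genes were split. COL5A1 and COL6A1, which encode collagen chains, had 83.6, 93.2 and 67.9 TPM and 65.7, 72.3 and 70.1 TPM, and THY1, a surface protein of fibroblasts, 78.9, 77.2 and 66.8 TPM. FBN1, MMP2, COL6A2 and PDGFRB were also present, with means of 28.4 to 62.4 TPM. COL1A2, which encodes a chain of type I collagen, had no count, while COL1A1, the other chain, had 42.8, 41.1 and 24.7 TPM. DES, LUM, PRRX1 and DCN were at or under the floor, and PDGFRA and COL3A1 were under 1 TPM in all libraries. ACTA2, smooth muscle actin, was present at 10.8, 8.9 and 13.5 TPM.

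Promoter windows of 5 identity genes are shown because they place genes with high RNA beside genes at or near the floor. Each holds 250 bases before and 50 bases from the start site in RefSeq (GRCh38.p14), 5′ to 3′ on the strand of the gene, and the CG dinucleotides, which read the same on both strands, are in capitals. The first window is FN1 at chr2:215436019-215436318 (minus strand), with 38 CG.
FN1: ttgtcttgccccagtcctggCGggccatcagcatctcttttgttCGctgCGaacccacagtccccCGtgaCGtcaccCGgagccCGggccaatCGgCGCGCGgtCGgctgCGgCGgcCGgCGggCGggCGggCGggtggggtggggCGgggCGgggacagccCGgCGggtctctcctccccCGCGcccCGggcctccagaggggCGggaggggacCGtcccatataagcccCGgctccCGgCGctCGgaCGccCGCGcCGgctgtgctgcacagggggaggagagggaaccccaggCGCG
CDH2 at chr18:28177081-28177380 (minus strand) holds 23 CG.
CDH2: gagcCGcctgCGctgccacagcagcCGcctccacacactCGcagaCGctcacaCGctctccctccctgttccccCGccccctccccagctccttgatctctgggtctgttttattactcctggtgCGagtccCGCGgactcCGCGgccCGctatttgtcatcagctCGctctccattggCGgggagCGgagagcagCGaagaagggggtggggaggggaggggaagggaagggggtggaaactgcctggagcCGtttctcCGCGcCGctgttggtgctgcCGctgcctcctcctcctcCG
VIM at chr10:17227991-17228290 (plus strand) holds 10 CG.
VIM: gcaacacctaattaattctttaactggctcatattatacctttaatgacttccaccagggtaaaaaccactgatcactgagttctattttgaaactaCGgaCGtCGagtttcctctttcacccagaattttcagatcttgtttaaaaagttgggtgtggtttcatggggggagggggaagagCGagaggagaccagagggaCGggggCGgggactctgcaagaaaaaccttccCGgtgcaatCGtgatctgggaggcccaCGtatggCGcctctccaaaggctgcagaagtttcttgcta
KRT5 at chr12:52520345-52520644 (minus strand) holds 7 CG.
KRT5: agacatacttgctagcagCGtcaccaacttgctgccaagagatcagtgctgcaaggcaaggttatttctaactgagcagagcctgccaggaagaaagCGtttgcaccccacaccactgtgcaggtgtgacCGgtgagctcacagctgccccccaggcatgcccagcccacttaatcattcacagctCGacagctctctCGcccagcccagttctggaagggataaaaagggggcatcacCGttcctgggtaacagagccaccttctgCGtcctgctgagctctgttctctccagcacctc
TP63 at chr3:189631139-189631438 (plus strand) holds 7 CG and, at its end, the letters TATAAA read on the other strand. This window lies at the outermost annotated start of TP63, and starts further inside the gene were not examined.
TP63: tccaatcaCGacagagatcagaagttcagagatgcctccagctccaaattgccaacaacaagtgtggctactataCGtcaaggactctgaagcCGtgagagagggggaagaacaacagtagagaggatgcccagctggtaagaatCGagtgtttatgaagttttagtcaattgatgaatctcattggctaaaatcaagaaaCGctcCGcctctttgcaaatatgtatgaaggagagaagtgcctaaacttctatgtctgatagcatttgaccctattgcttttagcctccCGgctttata
Over 14681 protein-coding genes with a window within 100 bases of the annotated start, the median was 24 CG. The 9132 genes called present had a median of 28 CG (quartiles 21 and 36) and the 3888 genes at or under the floor a median of 6 (quartiles 2 and 18). A window of 10 or more CG was held by 94.8% of present genes, 38.6% of floor genes and 76.4% of all. The VIM window held 10 CG, far below the median of present genes, while VIM had 816 to 928 TPM. That window lies at the outermost annotated start of VIM, so its CG count does not describe any start further inside the gene. The letters TATAAA on either strand occurred in 4.76% of present genes, 20.04% of floor genes and 9.45% of all. Among 100 windows of the genes highest by TPM, the share was 17%. These counts describe the windows, each at a single start site of its gene, and were not tested. Other start sites of the same genes were not examined.

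Few genes of differentiated airway cells were present. None of 14 club and goblet genes was called present, against 57.9% of protein-coding genes, and 12 of them were at or under the floor. SCGB1A1, the secretoglobin of club cells, and SCGB3A1, SCGB3A2, BPIFA1, CLCA1 and CYP2F1 had no count, and the mucins MUC5AC and MUC5B, with AGR2, SPDEF, TFF3 and BPIFB1, were at or under the floor. Of 12 ciliated genes, MCIDAS and CAPS were present, at 6.06, 8.79 and 6.35 TPM and 3.03, 3.53 and 1.14 TPM, 7 were low and 3 were at or under the floor. FOXJ1, the master regulator of motile cilia, was low at 0.3199, 0.205 and 0.469 TPM. DNAH5, an axonemal dynein, was detected with 80, 91 and 30 counts but was low at 0.888, 0.971 and 0.293 TPM, and HYDIN, of the central apparatus of cilia, had 13, 5 and 12 counts. The axonemal genes DNAI1, DNAH9 and TEKT1 were at or under the floor, while RSPH1 and CCDC39 of the same list were low. Of 12 ionocyte, tuft and neuroendocrine genes, only AVIL was present, at 1.86, 1.84 and 1.64 TPM. FOXI1, ASCL3, INSM1, CALCA and GRP had no count, and CFTR and TRPM5 were at or under the floor.

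Markers from outside the airway gave single genes rather than whole programmes. Of 12 alveolar genes, LAMP3 (45.8, 48.5 and 31.9 TPM), RTKN2 (13.7, 13.99 and 10.7 TPM) and AGER (6.65, 4.85 and 5.62 TPM) were present. The surfactant genes SFTPA1 and SFTPA2 had no count, but they are near-identical copies and reads that mapped to both were not counted. SFTPC, SFTPB, SFTPD, NAPSA, SLC34A2 and AQP5 were at or under the floor. Of 8 endothelial genes, CDH5 and TIE1 were present, at 3.303, 3.53 and 5.13 TPM and 2.55, 2.49 and 3.77 TPM, and PECAM1 was low at 0, 0.171 and 0.188 TPM. Of 12 immune genes, CD14 (13.9, 12.9 and 8.55 TPM) and KIT (1.56, 1.17 and 1.03 TPM) were present, while PTPRC, the pan-leukocyte gene, and CD3E and TYROBP had no count. MS4A1 and LYZ were at or under the floor, as was CD68, most of whose exons overlap another gene. Of 7 mesothelial genes, BNC1 and MSLN were present, at 77.7, 80.01 and 58.5 TPM and 20.6, 19.1 and 14.2 TPM, and WT1, CALB2 and LRRN4 were at or under the floor. Over the 7 lists together, 12 of 77 genes (15.6%, against 57.9% of protein-coding genes) were present, and their summed level was 162 to 213 TPM, against 2332 to 3675 TPM for the epithelial list.

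Of 23 transcription factors of the lung lineage, 14 were present (60.9%, near the 57.9% of protein-coding genes). NKX2-1, which specifies lung endoderm, and its partner FOXA2 were at or under the floor, as were TBX4 and FOXP2, and SOX2, TBX5, IRX5 and ELF5 had no count. SOX9, a factor of the distal lung bud, had 61.7, 56.3 and 87.6 TPM, and ETV5, an effector of FGF signalling, 76.8, 69.5 and 77.2 TPM. KLF5, IRX2, GATA6 and FOXA1 were also present, FOXA1 at 21.1, 18.3 and 19.96 TPM and GATA6 at 20.3, 18. and 14.2 TPM. The HOX genes, which record position along the body axis, were split by cluster. Of 39 HOX genes, 13 were present (33.3%, against the same 57.9% of protein-coding genes). HOXB had 6 of 10 genes present and HOXC 6 of 9. HOXB7 was the highest in every library with 34.3, 33.6 and 40.4 TPM. HOXB4 had 17.5, 15.6 and 31.04 TPM and HOXB9 24.2, 20.2 and 7.32 TPM, so HOXB9 was above HOXB4 in replicates 2 and 3 and below it in replicate 4. HOXA had 1 of 11 present, and all 9 HOXD genes had no count in any library.

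All 12 proliferation genes and all 12 cell-cycle guardians were present (100%, against 57.9% of protein-coding genes). PCNA, the sliding clamp of DNA replication, had 1098, 1005 and 909 TPM, and MKI67 152, 178 and 168 TPM. CCNB1 and TOP2A, which act in mitosis, had 546, 511 and 610.2 TPM and 484, 477 and 493 TPM. The range of each of these 4 genes was narrow relative to its level. RB1, a brake on entry into S phase that SV40 large T antigen binds, had 154, 139 and 133 TPM. CDKN2A, which encodes p16 and p14ARF, had 311, 361 and 327 TPM, and TERT, the catalytic subunit of telomerase, 10.02, 10.4 and 9.39 TPM. CDKN1A, which encodes the cell-cycle inhibitor p21, had 441, 458 and 1021 TPM. Replicate 4 was far above the others for CDKN1A, with a CPM ratio of 2.303 between the highest and lowest library. MDM2, a ubiquitin ligase, had 95.7, 83.4 and 183 TPM, again highest in replicate 4.

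Among cytochrome P450 genes, 11 of 33 (33.3%, against 57.9% of protein-coding genes; 13 without replicate 4) were present, and CYP1B1 was the highest by TPM. CYP1B1, an enzyme of polycyclic hydrocarbon and estrogen oxidation that the aryl hydrocarbon receptor induces, had 295, 270.4 and 254 TPM, or 273 ± 20.8 (SD, n = 3). CYP27A1, a sterol hydroxylase, had 17.2, 16.7 and 21.97 TPM, and CYP2U1 and CYP2S1 had 16.3, 14.3 and 17.1 TPM and 12.1, 14.4 and 14.2 TPM. The ranges of CYP27A1 and CYP2U1 overlapped and lay far below that of CYP1B1. CYP1A1, the classic target of the aryl hydrocarbon receptor, had 18, 21 and 49 counts, or 1.48, 1.66 and 3.54 TPM. The ratio of CYP1B1 to CYP1A1 per length was 199.9, 163 and 71.8. Most P450 genes known for drug metabolism in liver had no count or were at or under the floor: CYP2A6, CYP2B6, CYP2C8, CYP2C18, CYP2C19, CYP2E1, CYP2F1, CYP3A4, CYP3A7, CYP3A43, CYP4B1 and CYP26A1 had no count, and CYP1A2, CYP2A13, CYP2J2 and CYP2W1 were at or under the floor. CYP2A6 and CYP2A13 oxidize nicotine. CYP3A5 was present at 3.597, 2.7 and 2.55 TPM. CYP51A1, present at 6.08, 8.13 and 8.73 TPM, shares 74.1% of its exon length with other genes. Reads that overlap several genes were ignored in counting, so its level may be too low.

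Other phase I enzymes were present for 23 of 43 genes (53.5%, near the 57.9% of protein-coding genes). NQO1, the quinone reductase of the NRF2 response, had 599, 573 and 359.6 TPM, and AKR1B1, aldose reductase, 291, 291 and 285 TPM. ALDH9A1 and ADH5, which oxidize aminoaldehydes and formaldehyde adducts, had 155, 148 and 137 TPM and 123, 113 and 144 TPM. POR, the electron donor of microsomal P450 enzymes, had 34.8, 34.1 and 44.4 TPM. AKR1B1 was nearly equal in all 3 libraries, while NQO1 was lowest in replicate 4. ADH1A, ADH1B, ADH1C, ADH4, ADH7, CES1, AKR1C2 and AKR1C4 had no count, and ALDH1A1, FMO1 and FMO2 were at or under the floor. AKR1C1, low at 0.126, 0.0907 and 0.194 TPM, and AKR1C2 share near-identical sequence, so reads that mapped to both were not counted.

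Phase II genes were present for 16 of 44 (36.4%, against 57.9% of protein-coding genes). GSTP1, the glutathione transferase typical of lung, led with 602, 606 and 535 TPM. GSTO1, an omega-class transferase, had 216, 217 and 456 TPM, and NNMT, which methylates nicotinamide, 241, 240.1 and 116 TPM. GSTO1 was highest and NNMT lowest in replicate 4, and the ratio of GSTP1 to GSTO1 per length was 2.79, 2.798 and 1.17. GSTK1 had 76.1, 71.2 and 58.2 TPM. Of the UDP-glucuronosyltransferases, UGT2B17 was low and the others were not above the floor: UGT1A1, UGT1A3, UGT1A4, UGT1A6, UGT1A9, UGT1A10, UGT2A1, UGT2B4, UGT2B10 and UGT2B15 had no count and UGT2B7 was at or under the floor. The UGT1A genes share their last exons, whose reads overlap several genes and were ignored in counting, so their zeros are uncertain. The sulfotransferases SULT1B1, SULT1C2, SULT1E1 and SULT2A1, with GSTM5 and INMT, had no count, and GSTA1, GSTA2 and SULT2B1 were at or under the floor. GSTA1 and GSTA2 are near-identical copies. In all, 13 phase II genes share sequence or exons with others, and 12 of them were not present.

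Of 22 drug transporters, 11 were present (50%, against 57.9% of protein-coding genes). ABCC1, the efflux pump MRP1, was highest with 88.7, 96.1 and 88.97 TPM. ABCC4 had 39.7, 39.6 and 32.9 TPM and SLCO4A1 20.5, 21.9 and 35.8 TPM, and ABCB1, P-glycoprotein, 7.52, 7.06 and 8.73 TPM. ABCC1 was above each of these in every library. SLC22A2, SLC22A6, SLCO1A2 and SLCO1B1, transporters of kidney and liver, had no count. Among the transcription factors that sense ligands and xenobiotics, 20 of 31 were present (64.5%, against the same 57.9%). AHR, the aryl hydrocarbon receptor, had 44.2, 34.99 and 27.1 TPM, though 35.2% of its exon length overlaps other genes. NFE2L2, which encodes NRF2, had 59.8, 55.2 and 38.3 TPM, and its inhibitor KEAP1 92.9, 102 and 113 TPM. NR3C1, the glucocorticoid receptor, had 94.2, 91.1 and 91.8 TPM. Both AHR and NFE2L2 were lowest in replicate 4, while NR3C1 was nearly level. The pregnane X receptor NR1I2 was at or under the floor, as were RXRG, NR1H4 and PGR, and ESR1 was low at 0.0804, 0.0386 and 0.0884 TPM.

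Few acetylcholine receptor genes were present, 3 of 21 (14.3%, against 57.9% of protein-coding genes; 4 without replicate 4). CHRNB1 had 13.3, 12.1 and 19.7 TPM and CHRNA5 8.37, 7.97 and 11.5 TPM, both highest in replicate 4, and 28.4% of the CHRNA5 exon length overlaps other genes. CHRM4 was present at 1.98, 1.297 and 1.27 TPM. CHRNA7, which forms the homomeric nicotinic receptor, was low with 12, 15 and 16 counts, or 0.156, 0.187 and 0.183 TPM, and it has a partial duplicate in the genome. CHRNA3 and CHRNB4, the usual partners of CHRNA5, were low at 0.753, 0.334 and 0.459 TPM and 0.0553, 0 and 0.341 TPM. The subunits CHRNB3 and CHRNG had no count, and CHRNA1, CHRNA4, CHRNA9, CHRND and CHRNE, with the muscarinic receptors CHRM1, CHRM2 and CHRM3, were at or under the floor.

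Of 41 receptors for irritants, lipids and amines, 22 were present (53.7%, near the 57.9% of protein-coding genes). F2R, the thrombin receptor PAR1, had 131, 126 and 157 TPM, and ADORA2B, an adenosine receptor, 96.5, 92.3 and 179 TPM. LPAR1, a lysophosphatidic acid receptor, had 83.3, 72.8 and 101 TPM, and TRPM7, an ion channel fused to a kinase, 38.3, 34.5 and 40.7 TPM. ADORA2B was highest in replicate 4 by the widest margin of these 4. The irritant channel TRPA1 was low at 0.0869, 0.0418 and 0.191 TPM, and TRPV1, the capsaicin receptor, was present at 1.1, 2.26 and 2.02 TPM. HRH2, PTGER3 and CYSLTR1 had no count, and ADORA2A, ADRB3, F2RL3, PTGER1 and TRPM8 were at or under the floor.

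Growth factor receptors had 22 of 29 members present (75.9%, against 57.9% of protein-coding genes; 23 without replicate 4). AXL, a receptor tyrosine kinase for GAS6, had 1031, 1032 and 984 TPM, or 1015 ± 27.3 (SD, n = 3). On the union of exons AXL was above VIM in every library, and on the canonical transcripts it was below, with means of 621 and 1202 TPM. EPHA2, an ephrin receptor, had 357, 376 and 446 TPM, and MET, the hepatocyte growth factor receptor, 241, 228 and 214 TPM. AXL exceeded EPHA2, and EPHA2 exceeded MET, in every library without overlap of the ranges. TGFBR2, a TGF-beta receptor, had 99.8, 92.6 and 145 TPM, and EGFR 65.6, 67.4 and 82.7 TPM. ERBB4 had no count and NTRK2 was at or under the floor. DDR2, a receptor for fibrillar collagen, had 36.9, 37.5 and 6.36 TPM, with replicate 4 far below the others.

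Cytokine receptors were present for 24 of 34 genes (70.6%, against 57.9% of protein-coding genes). TNFRSF10B, the TRAIL receptor DR5, had 184, 189.8 and 221 TPM, and OSMR, the oncostatin M receptor, 173, 169 and 194 TPM. TNFRSF1A, the main TNF receptor, had 154, 156 and 145 TPM, and IL6ST, the shared signalling chain of the IL-6 family, 123, 117 and 103 TPM. The interferon receptor chain IFNAR1 had 26.2, 24.2 and 28.6 TPM. IL13RA2 and IL20RA had no count and IL2RG was at or under the floor. CSF2RA and CRLF2, also at 0, lie in the region shared by both sex chromosomes, where reads map to 2 places and were not counted. Of 24 innate sensors, 12 were present (50%, against the same 57.9%). IFI16 and CGAS, sensors of DNA, had 77.4, 68.2 and 105 TPM and 53.7, 48.9 and 44.95 TPM, and MAVS and MYD88, adaptors of RNA sensing and of Toll-like receptors, 69.2, 70.1 and 68.5 TPM and 38.5, 37.1 and 40.7 TPM. TLR4 and TLR3 were present at 14.3, 13.2 and 16.7 TPM and 7.801, 6.399 and 8.61 TPM, and TLR1 was low at 0.243, 0.0584 and 0.107 TPM. TLR7, TLR8, TLR9 and ZBP1 had no count, and TLR5, TLR10, NOD2 and AIM2 were at or under the floor. RIGI was under 1 TPM throughout, at 0.187, 0.384 and 0.305 TPM.

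Of 17 virus entry receptors and proteases, 12 were present (70.6%, against 57.9% of protein-coding genes). BSG, basigin, had 585, 643 and 568 TPM, and CTSB, the lysosomal protease cathepsin B, 304, 299.7 and 385 TPM. ICAM1, the receptor of major group rhinoviruses, had 82.8, 90. and 113 TPM, and FURIN, a proprotein convertase, 68.7, 75.5 and 81.3 TPM. BSG was the highest of the list in every library. TMPRSS2, a serine protease that primes viral envelope proteins, had no count, and TMPRSS4 was at or under the floor.

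The differences of control replicate 4 were wide and ran in both directions. Among 10750 genes with at least 20 counts in every library and a mean of at least 5 CPM, the highest and lowest library differed past 2-fold for 378 genes. Replicate 4 was the highest library for 179 of them and the lowest for 198. It lay between the others for 1, OAS2, an interferon-induced sensor of double-stranded RNA, at 14.6, 7.25 and 13.98 CPM. Over all 10750 genes, replicate 4 was highest for 38.2%, lowest for 46.3% and between the others for 15.5%. STC1, the secreted glycoprotein stanniocalcin, had the widest excess in replicate 4, at 12.7, 12.7 and 108 CPM, a ratio of 8.52. MMP1, an interstitial collagenase, had 228, 202 and 1124 CPM, and MMP3, stromelysin, 2.31, 2.44 and 16.1 CPM. For STC1, MMP1 and MMP3, replicates 2 and 3 were close to each other. The other genes of the 10 widest were ESM1, CCN3, MPP4, GREB1 and the histone genes H2BC11, H2BC5 and H4C8, with ratios of 4.21 to 6.63. Most histone transcripts lack a poly(A) tail, and H2BC11 had 5.31, 5.85 and 26.3 CPM.

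In the other direction, OSCAR, a collagen receptor, had 13.99, 15.1 and 1.31 CPM, a ratio of 11.5 between the highest and lowest library. SPX, a secreted peptide precursor, had 33.2, 30.3 and 3.004 CPM, and OLR1, a receptor for oxidized low density lipoprotein, 26.2, 24.8 and 2.46 CPM. Replicates 2 and 3 were within a narrow range for each of these genes. DDR2 had 92.8, 95.7 and 15.9 CPM, ASS1, argininosuccinate synthase, 35.7, 38.7 and 6.94 CPM, and the immediate early factor EGR1 66.6, 70.9 and 16.5 CPM. ST6GALNAC3, TTC9, CACNG4 and PPM1E completed the 10, with ratios of 4.62 to 10.7. Among list members, wide ratios were those of DDR2 (6.02), KRT17 (3.79), HOXB9 (3.33) and SNAI2 (3.08). KRT17, HOXB9 and DDR2 were lowest and SNAI2 highest in replicate 4.

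**Figure D4:**
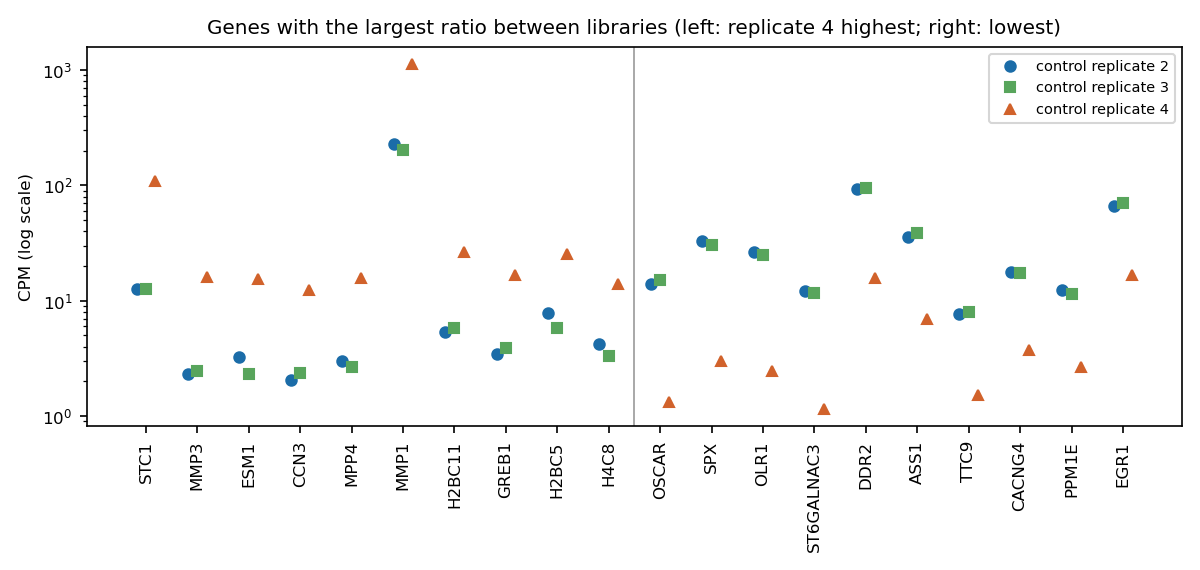
CPM on a log axis of the 10 genes with the largest ratio between libraries for which control replicate 4 was highest (left) and of the 10 for which it was lowest (right), with a point for each untreated library. Replicates 2 and 3 lie near each other for all 20 genes, and replicate 4 lies apart.

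List genes moved with the same library. Of 322 list genes with at least 10 counts in every library, 3 (0.932%) differed past 2-fold between replicates 2 and 3, against 0.706% of all genes. Between replicates 2 and 4 it was 34 (10.6%), against 4.9% of all genes, and between replicates 3 and 4 it was 37 (11.5%), against 4.84%. The shares of list genes that differed from replicate 4 were above the share of all genes. The lists were chosen with earlier results of these data known, so no conclusion is drawn from this difference. By the median of members with at least 10 counts, replicate 4 differed from the mean of the others on the log2 scale by −0.35 for the epithelial list, 0.47 for the basal list and −0.29 for the mesenchymal list, against −0.03 over all genes. The basal median was positive although KRT17, its most abundant gene by TPM, was lower there. Summed over the epithelial list, the level was 3675, 3615 and 2332 TPM. Over the mesenchymal list it was 5069, 5032 and 4028 TPM, and over the basal list 677, 685 and 657 TPM. All 3 sums were lowest in replicate 4, the basal one against the sign of its median. Proliferation genes were close to level, with a median log2 difference of −0.02.

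Library properties differed over a small range. Replicate 4 had the most counts and the most genes with a count, but its TMM factor was 1.02 against 0.9901 and 0.9864. By quintiles of canonical transcript GC, the median log2 ratio of replicate 4 to the mean of the others lay between −0.05 and 0.01, and that of replicate 3 to replicate 2 ran from −0.09 in the lowest to 0.11 in the highest quintile. By quintiles of length, both lay between −0.04 and 0.03. The part of depth, GC content and length in the differences of replicate 4 was not tested, and replicate 4 is also the only untreated library of batch 4.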

How the data were processed

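The 3 untreated libraries were read from a table in which the authors deposited raw counts for 63187 genes. Before deposit, fastp was used by the authors for trimming, STAR for alignment to GRCh38.p12, and featureCounts of Subread 2.0.4 for counting on exons, leaving out multi-mapping and multi-overlapping reads. The strand setting is not given in the sources used here, so reads of overlapping genes may be counted for their neighbours. Every column was mapped to a sample, and those of treated cells entered no result.

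Symbols, coordinates and lengths came from GENCODE 44 (GRCh38), in which 62666 IDs matched. The other 521 held under 0.04% of the counts and were left out of TPM. CPM used TMM factors from edgeR 4.0.16 in R 4.3.3, and size factors and dispersions from DESeq2 1.42.0 served as alternatives. Biological variation was estimated by edgeR with an intercept alone. The other steps used numpy 2.4.6, pandas 2.3.3 and scipy 1.17.1, and were tested on simulated data. Totals of 16168260 to 17882770 counts make 1 count worth 0.0546 to 0.0625 CPM.

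The members and the 25 gene lists (583 genes, 582 matched) were chosen with earlier results of these data known. Named were the 6 markers KRT5, KRT8, KRT18, VIM, CDH1 and CDH2, the 15 genes highest in CPM and in TPM, the first member and the 4 highest by TPM of each list, list members at or under the floor, the 10 genes with the widest ratio in each direction of replicate 4, and the 5 list members with the widest ratio. Any other gene was singled out after its values were seen. Some genes that fall under this rule are not reported here. Alternatives were other scalings, lengths, presence thresholds, pseudocounts and filters, and leaving out each library.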

Additional observations from a re-analysis of the deposited data

How the results depend on the processing

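No paired analysis was possible because only untreated libraries were used, so there is no second group to pair. Presence counts over all genes, protein-coding genes, all lists and the epithelial, basal and mesenchymal lists stayed within 1.5 times of their values under every presence threshold, length and left-out library tried, and when members with shared exons or copies were left out, an alternative chosen after seeing the data. With the canonical transcript length KRT8 came to 1435 TPM, VIM to 1202 TPM and CDH2 to 199 TPM, and over nuclear protein-coding genes only VIM came to 1009 TPM, each outside 1 SD of its value. Genes past 2-fold depended on the filter. With no filter on low counts they were 2627 between replicates 2 and 3, 3668 between 2 and 4 and 3627 between 3 and 4, and at 50 counts or more 1, 298 and 316. Pearson's r with replicate 4 was 0.993 in both pairs with no filter, and 0.975 (replicate 2) and 0.976 (replicate 3) at 50 counts. Leaving out 1 library in turn, the median coefficient of variation ranged from 0.0576 (without replicate 4) to 0.185. Of 1452 further values for single genes and lists, 128 moved, 76 with the canonical length and 48 with the nuclear protein-coding restriction. Counting limits the genes near the floor, CDH1 in replicate 4 among them.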

Other observations

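Long non-coding RNAs took 0.858% to 0.944% of the counts. Of 18852, 1652 (8.76%) were present at 1 TPM or more in all 3 untreated libraries. The share present was 22.5% over all matched genes and 57.9% over protein-coding genes. The long non-coding RNAs named here were singled out after their values were seen. LINC03061 was the highest by mean TPM, at 484, 418 and 862 TPM, with replicate 4 above the others. NORAD, which binds Pumilio proteins in the cytoplasm, had 354, 352 and 402 TPM and was nearly level. SNHG1 and GAS5, which host small nucleolar RNAs in their introns, had 149.99, 141 and 86.1 TPM and 125, 131 and 90.4 TPM, and both were lowest in replicate 4.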
